A study of Mus musculus with 4 samples.

Results

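The genes described here are 32 known transcriptional targets of the tumour suppressor p53, other than Cdkn1a and Mdm2, among the 51905 genes measured in CT26 and MC38 cells. They were chosen by symbol as known targets, by a rule that uses no difference between libraries. For each symbol the row of the deposited table with the most counts was taken. The study asked what changes in gene expression when Aurora-A, a mitotic serine/threonine kinase encoded by Aurka, is knocked down in mouse colorectal cancer (CRC) cells. The question put to these 32 genes was whether their mRNA differed between knockdown and control cells, and how their levels compared between the lines.

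CT26 and MC38 are mouse colon tumour lines. Each line was infected with lenti-shGFP, a lentivirus carrying a control hairpin, or with lenti-shmaurka-1, carrying a hairpin against mouse Aurora-A, and total RNA was taken 48 h after seeding. The labels give all 4 groups the genotype WT and the tissue colon, and they call CT26 a fibroblast and MC38 an epithelial cell. CT26 grew in RPMI-1640 and MC38 in high glucose DMEM with HEPES and non-essential amino acids, both with fetal bovine serum and Penicillin-Streptomycin. A single hairpin was used against Aurora-A, and 1 library was sequenced for each group, so differences within a line have no replicate check. Line and culture medium cannot be told apart. In bulk RNA, fewer cells expressing a gene and less RNA per cell cannot be told apart either.

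p53 is a DNA-binding transcription factor that is held at a low level by the ubiquitin ligase Mdm2 and accumulates after DNA damage and other stress. It binds an element made of a pair of similar half-sites and switches on genes that halt the cell cycle, repair DNA, change metabolism or start apoptosis. In the colon it is among the genes most often mutated in carcinoma. Aurora-A can phosphorylate p53.

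The libraries held 22207768 to 23752269 fragments, and the deepest was 1.07 times the shallowest. Aurka itself had 5724 fragments in the CT26 control against 1093 after knockdown, and in MC38 2300 against 413, so it was lower in both libraries labelled as knockdown. The change was -2.27 on the log2 scale in CT26 (95% counting interval -2.36 to -2.17) and -2.44 in MC38 (-2.60 to -2.30). Of 10 fibroblast markers, 9 were above 3 fragments in every library, and their summed FPKM (fragment number relative to transcript length and sequencing depth) was 921 and 929 in CT26 and 571 and 578 in MC38. These sums were mostly Vim and Fn1, while Col3a1 and Pdgfra had more fragments in both MC38 libraries. Of 10 epithelial markers, 2 were above 3 fragments in every library, and their sum was 43.0 and 42.7 in CT26, mostly Krt18, but 1.29 and 0.987 in MC38. Vil1 went the other way, with 0 and 0 fragments in CT26 and 38 and 29 in MC38. Cdh1 did too, at 1 and 2 against 6 and 4. Epcam had at most 1 fragment in each library, so the defining epithelial marker was at the floor in the line labelled as epithelial. Sums over the leukocyte and endothelial markers were between 0.540 and 3.60. The part of these markers in the differences between the lines was not tested.

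For some of the 32 genes the RefSeq promoter sequence (GRCm38.p6, 250 bases before to 50 after a gene's start) held a p53 element. The search asked for 2 adjacent copies of the p53 half-site consensus with at most 3 mismatches over 20 bases and with the fixed C and G of each half-site intact. This element reads the same on both strands. It was present in 453 of 32851 windows (1.38%) and in 441 of 27025 genes (1.63%). Of the 32 genes, 25 had a window, and 5 of these held the element, namely Aen, Ccng1, Rps27l, Sesn1 and Tigar. Ddb2, Perp, Rrm2b, Tnfrsf10b, Trp53inp1, Xpc and Zmat3 had no window in the table used. The sequences of 4 of these genes are shown 5′ to 3′ on the gene's strand, with the element in capitals, to show what such an element looks like in the genes measured. Ccng1 and Rps27l differed from the consensus at 1 base, a match found in 22 windows (0.067%), and Sesn1 and Tigar at 3.
Ccng1, chr11:40755442-40755501, minus strand, element starting at -195 from the gene's start: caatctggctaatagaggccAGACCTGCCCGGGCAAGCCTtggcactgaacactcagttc
Rps27l, chr9:66946276-66946335, plus strand, at -117: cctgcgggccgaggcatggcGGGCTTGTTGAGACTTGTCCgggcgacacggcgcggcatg
Sesn1, chr10:41887246-41887305, plus strand, at -173 from the downstream start: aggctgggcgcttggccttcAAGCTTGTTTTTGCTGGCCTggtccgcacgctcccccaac
Tigar, chr6:127109726-127109785, minus strand, at -213: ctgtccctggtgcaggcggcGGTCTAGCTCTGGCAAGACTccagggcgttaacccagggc
A match is a description of the sequence and not a shown binding site, and the absence of a match in this short window says nothing of elements elsewhere in a gene. Aen, Ccng1 and Rps27l were higher in CT26 than in MC38 and Sesn1 and Tigar were lower, so genes holding the element stood on both sides of the comparison of the lines described next.

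The 32 genes ranged from undetected to among the abundant mRNAs of these cells. By FPKM, which is comparable between genes, Plk2 was the highest of them in CT26 shGFP at 589, followed by Gadd45a at 352, Rps27l at 278 and Epha2 at 229. In MC38 shGFP the order was different, with Gadd45a at 165, Rps27l at 153 and Ddit4 at 121 on top, and Plk2 at 12.5. At the low end, Perp, which encodes a membrane protein of desmosomes, had no fragment in any of the 4 libraries, which allows up to 3 fragments in each. Cpt1c, a carnitine palmitoyltransferase family member, had 2 and 3 fragments in CT26 and 23 and 16 in MC38. Fas, the death receptor for Fas ligand, stayed between 29 and 61 fragments, and Dcxr, a dicarbonyl and xylulose reductase, between 15 and 63.

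**Figure D1:**
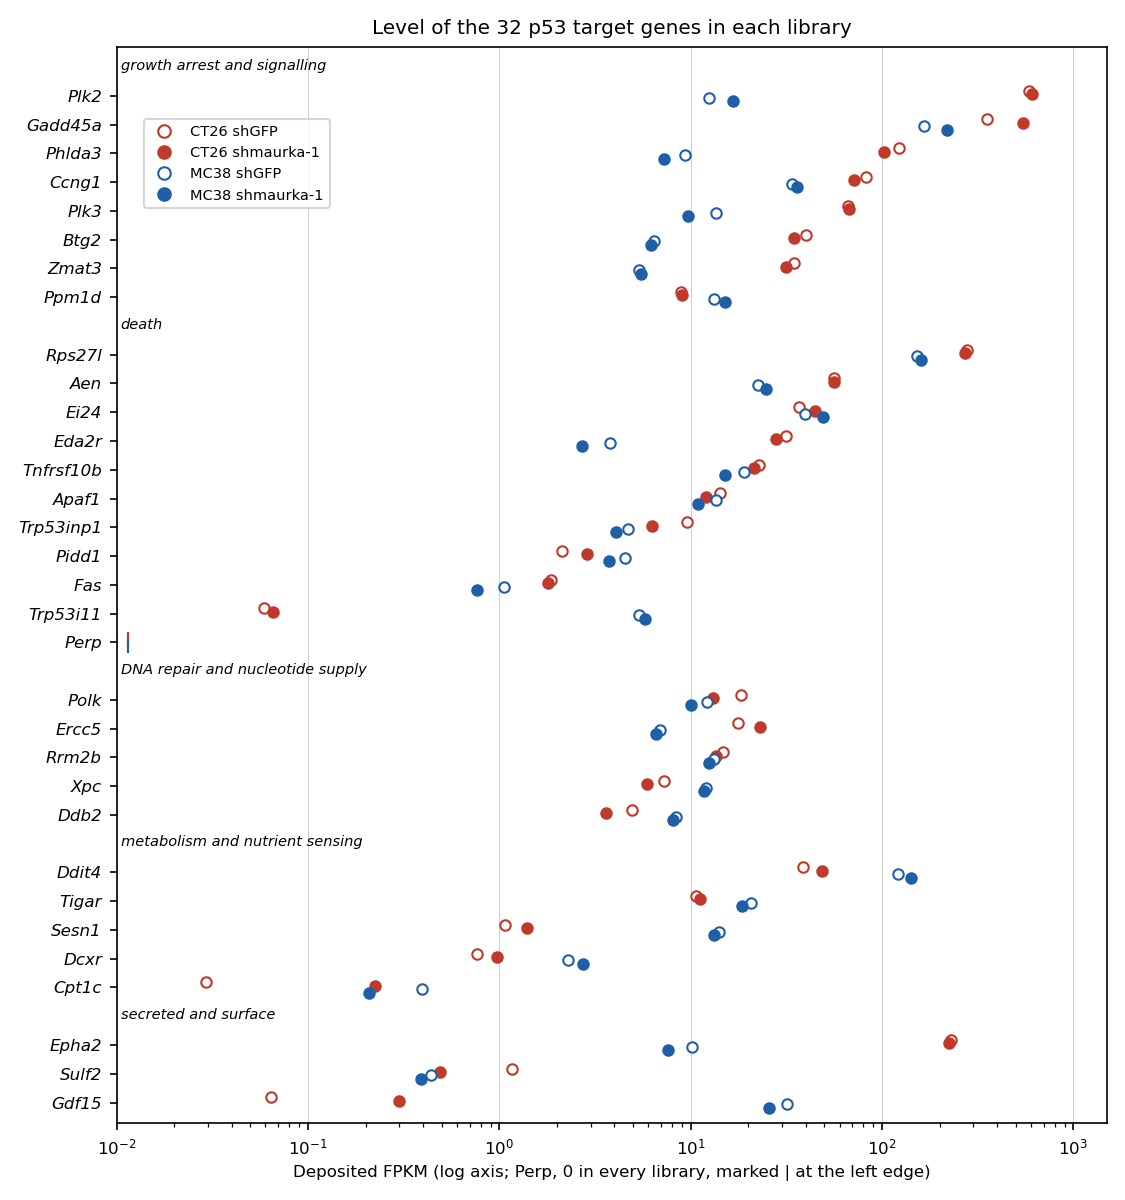
Deposited FPKM (log axis) of each of the 32 genes in the 4 libraries, grouped by role, with open circles for shGFP, filled circles for shmaurka-1, red for CT26 and blue for MC38. For many genes the colours are further apart than the open and filled circles, as for Plk2 at 589 and 609 in CT26 against 12.5 and 16.7 in MC38.

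Levels of the p53 targets were compared between the shGFP libraries of the lines, first over the 28 genes that averaged 10 or more counts in CT26 and also in MC38. The quartiles of all genes were -1.02 and 0.66 for the log2 ratio of CT26 to MC38 (13984 genes). With knockdown they were -0.17 and 0.14 in CT26 and -0.14 and 0.14 in MC38. Over the 28 genes the log2 ratio of CT26 to MC38 ran from -3.60 to 5.52, while the log2 fold changes with knockdown ran from -0.72 to 0.56. More than 1.5-fold higher in CT26 were 14 (50%), against 26.9% of all 11928 genes compared, and below 0.6-fold 7 (25%), against 24.1%. More than 4-fold higher were 7 (25%), against 4.94% of all genes, and more than 4-fold lower 1 (3.57%, Sesn1), against 6.55%. The median log2 ratio was 0.70 for the 28 genes and 0.01 for all genes. A filter on the mean over the 4 libraries kept 31 genes, adding Trp53i11, Cpt1c and Gdf15. These pass it only through MC38, where they are high, so their direction was set by the filter and they support no count. With them, 14 of 31 (45.2%) were more than 1.5-fold higher, against 26.9% of 13984 genes, 10 (32.3%) were below 0.6-fold, against 30.6%, 7 (22.6%) were more than 4-fold higher, against 7.23%, and 4 (12.9%) more than 4-fold lower, against 14.6%. In the edgeR quasi-likelihood fit over all 4 libraries, 16 of the 28 genes past the count filter (57.1%) were called higher in CT26 at an adjusted p under 0.05, against 36.6% of all 11928 genes, and 8 (28.6%) were called lower, against 36.7%. Both CT26 libraries lay above both MC38 libraries for 17 of the 28 (60.7%), against 42.2% of all genes, and below them for 8 (28.6%), against 42.3%, so libraries of the lines that do not overlap are common among all genes. The edgeR test sees 2 libraries a line, which differ in hairpin, and the spread between them may be technical.

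Of the genes of growth arrest and signalling, 7 of 8 (87.5%) had a log2 ratio above 0, against 50.2% of all genes past the same filter, and the median was 2.45, against 0.01. Plk2, a polo-like kinase involved in centriole duplication and stress responses, lies on chromosome 13 from 110395044 to 110400844. Its fragments were 43481 and 40441 in CT26 and 1117 and 1466 in MC38, giving shGFP before shmaurka-1 here and throughout. Both CT26 libraries were far above both MC38 libraries, and Plk2 was 45.9-fold higher between the controls (log2 ratio 5.52, 95% counting interval 5.44 to 5.61). Phlda3, which encodes a pleckstrin homology domain protein that restrains AKT, lies on chromosome 1 from 135766119 to 135769136. It had 4717 and 3367 fragments in CT26 and 424 and 325 in MC38, a 13.1-fold difference between the controls (log2 ratio 3.71, interval 3.57 to 3.86). Again the lines did not overlap, which is common among all genes, and both genes were picked for their large difference between the controls.

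Other genes of this group followed at smaller ratios. Zmat3, a zinc finger RNA-binding protein, had 3738 and 3200 fragments in CT26 and 708 and 713 in MC38, a 6.22-fold difference between the controls. Btg2, an antiproliferative partner of the mRNA deadenylase, had 1888 and 1489 in CT26 and 363 and 341 in MC38, a 6.12-fold difference. Plk3, another polo-like kinase, was 4.87-fold higher in the CT26 control. Ccng1, cyclin G1, was 2.36-fold and Gadd45a, a stress protein that binds PCNA, 2.1-fold higher. The exception was Ppm1d, the phosphatase WIP1 that reverses p53 phosphorylation, which had 551 and 498 fragments in CT26 and 980 and 1103 in MC38 and was called lower in CT26 (edgeR adjusted p = 1.95e-07, log2 difference over both treatments -0.70, SE 0.131).

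Among the genes linked to cell death, edgeR called 6 higher in CT26, against 36.6% of all genes, 1 lower, against 36.7%, and 2 neither way. With 9 genes past the filter, these counts are given as a description. Eda2r, the receptor for ectodysplasin A2, had 1644 and 1267 fragments in CT26 and 258 and 153 in MC38, a 7.49-fold difference between the controls. Aen, an apoptosis-enhancing nuclease, was 3.49-fold higher in the CT26 control, Fas 2.43-fold, Trp53inp1, a regulator of p53 phosphorylation and autophagy, 1.94-fold, and Rps27l, a ribosomal protein S27 homologue, 1.8-fold. Tnfrsf10b, the TRAIL receptor, differed least of the 7 called at 1.18-fold (log2 ratio 0.24, interval 0.13 to 0.34). With total-count scaling, which lowers all ratios between the lines, its log2 ratio was -0.0517. Pidd1, the scaffold of the PIDDosome, was called lower, with 170 and 180 fragments in CT26 and 404 and 339 in MC38. Apaf1, the scaffold of the apoptosome, had a log2 ratio of 0.01 (interval -0.09 to 0.11), and Ei24, a membrane protein of the endoplasmic reticulum, -0.13 (interval -0.24 to -0.02). Neither was called, with adjusted p of 0.555 and 0.141 in edgeR.

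The DNA repair genes were divided. Ercc5, the XPG endonuclease of nucleotide excision repair, was 2.86-fold higher in CT26 and Polk, a translesion DNA polymerase, 1.45-fold higher, and both were called by edgeR. Xpc and Ddb2, which recognise DNA lesions in the same repair pathway as Ercc5, were called lower in CT26, at ratios of 0.593 and 0.565. Ddb2 shares its locus in the files with Acp2, so its count is uncertain where the genes overlap. Rrm2b, the p53-inducible ribonucleotide reductase subunit, had between 774 and 950 fragments in the 4 libraries and was not called (adjusted p = 0.414 in edgeR).

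The 4 genes of metabolism and nutrient sensing past the filter in each line were all lower in CT26 shGFP than in MC38 shGFP, against 49.8% of all genes, with a median log2 ratio of -1.61, and edgeR called each of them lower, against 36.7% of all genes. Sesn1, a sestrin that restrains mTORC1 signalling, had 73 and 80 fragments in CT26 and 1057 and 994 in MC38, so it was 12.1-fold lower in the CT26 control. Ddit4, also called REDD1 and another inhibitor of mTORC1, had 1302 and 1464 fragments in CT26 and 4903 and 5552 in MC38, a 3.19-fold difference. Tigar, a fructose bisphosphatase that limits glycolysis, was 1.95-fold lower and Dcxr 2.93-fold lower in the CT26 control.

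The surface and secreted proteins and Trp53i11 come last. Epha2, a receptor tyrosine kinase for ephrin-A ligands (chromosome 4, 141301240 to 141329384), had 24903 and 21305 fragments in CT26 and 1333 and 978 in MC38. It was 22-fold higher in the CT26 control (log2 ratio 4.46, interval 4.38 to 4.54). Gdf15, a secreted stress cytokine of the TGF-beta superfamily (chromosome 8, 70629393 to 70632456), had 2 and 8 fragments in CT26 and 1169 and 944 in MC38. Like Trp53i11, it failed the count filter in CT26 but not in MC38. Its log2 ratio between the controls was -8.39 with a counting interval of -12.00 to -7.10, wide because the CT26 control holds 2 fragments. Trp53i11 (chromosome 2, 93187548 to 93201759) had 4 fragments in each CT26 library and 382 and 415 in MC38, a log2 ratio of -6.04 (interval -8.22 to -4.97). Sulf2, an extracellular heparan sulfate sulfatase, had 69 and 41 fragments in CT26 and 55 and 58 in MC38. Its libraries overlapped between the lines, and its locus is shared with Ncoa3.

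**Figure D2:**
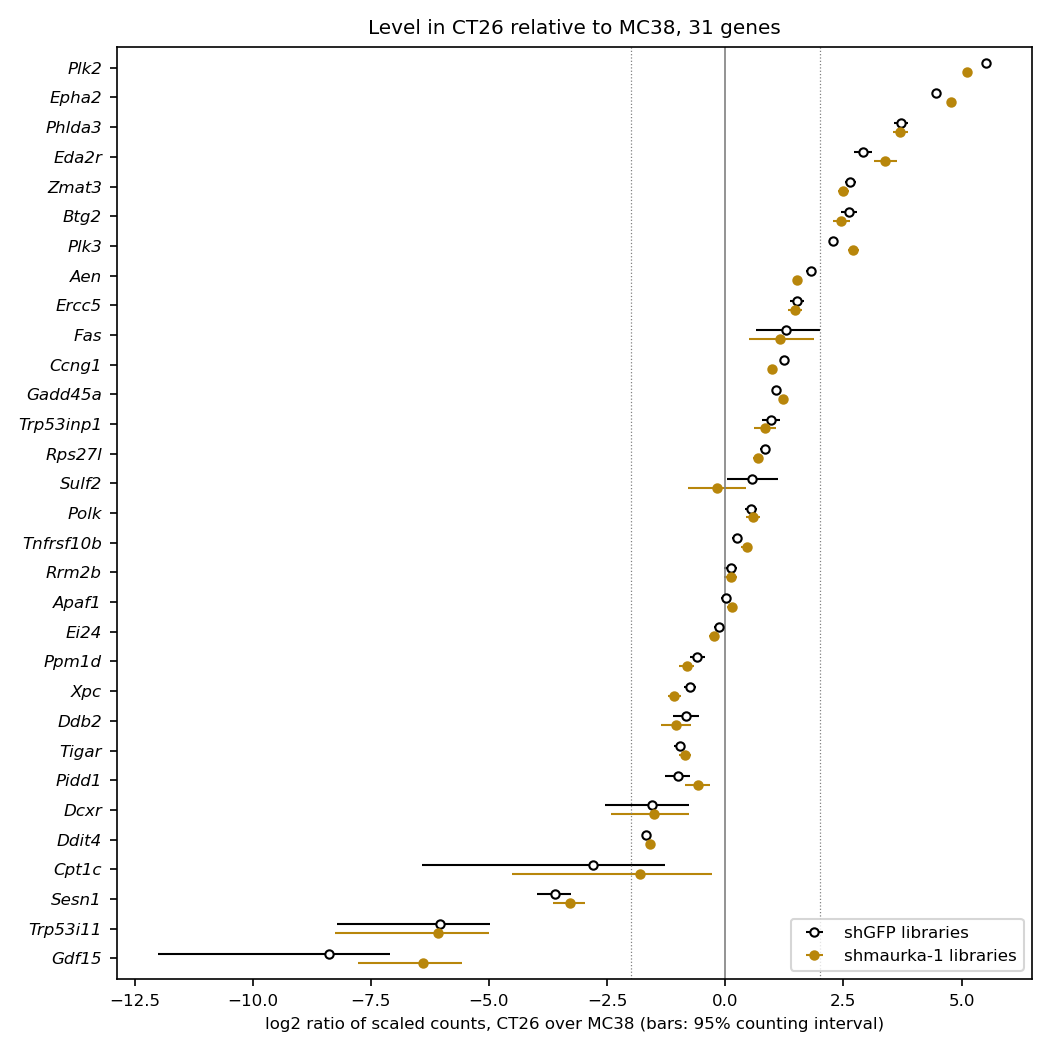
Log2 ratio of scaled counts, CT26 over MC38, for the 31 genes with enough counts, between the shGFP libraries (open) and between the shmaurka-1 libraries (filled), with 95% counting intervals as bars and dotted lines at 4-fold. The order runs from Plk2 at 5.52 to Gdf15 at -8.39, and the largest shift between open and filled points is that of Gdf15, at -6.40 between the shmaurka-1 libraries.

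The p53 gene itself and its targets Cdkn1a and Mdm2 are given beside these genes. Trp53 had FPKM values of 88.9 and 104 in CT26 and 107 and 113 in MC38, a log2 ratio of -0.26 between the controls (interval -0.32 to -0.19), and edgeR called it lower in CT26 with an adjusted p of 0.0413. Cdkn1a, the p21 inhibitor of cyclin-dependent kinases, had FPKM values of 394 and 361 in CT26 and 20.9 and 16.6 in MC38, an 18.0-fold difference between the controls. Mdm2 had 171 and 136 in CT26 and 21.1 and 18.5 in MC38, an 8.99-fold difference. Both of these genes lay on the same side as Plk2, Phlda3 and Epha2. Of a list of 20 genes of the p53 circuit, with p53 family members, upstream kinases and further targets, 16 passed the filter in each line. Of these, 6 were more than 1.5-fold higher in CT26, against 26.9% of all genes, and 6 below 0.6-fold, against 24.1%.

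In the knockdown comparison, 28 genes passed the count filter (on average 10 or more counts per library in both lines). By scaled counts, none of them went beyond 1.5-fold higher or below 0.6-fold in either line. These are the thresholds of the study, which asked for them in both lines. By the deposited FPKM, Gadd45a in CT26 went from 352 to 547 and passed 1.5-fold. Among all 11928 genes, 3.2% were above 1.5-fold and 2.58% below 0.6-fold in CT26, and 2.47% and 1.03% in MC38. The value nearest the upper threshold was Gadd45a in CT26 at 1.48-fold, and the nearest to the lower one was Eda2r in MC38 at 0.607-fold. For CT26 the 28 log2 fold changes had a median of -0.08, and for MC38 of -0.04, against -0.01 and 0.00 for all genes.

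Smaller differences beyond counting error were frequent, as they were among all genes. In CT26 the counting interval lay below no change for 14 of the 28 genes (50%), against 21.1% of all genes, and above it for 3 (10.7%), against 22.1%. In MC38 it lay below for 10 (35.7%), against 22.3%, and above for 6 (21.4%), against 22.7%. It lay below in both lines for 7 (25%), against 7.49%, namely Phlda3, Tnfrsf10b, Eda2r, Apaf1, Trp53inp1, Polk and Epha2. It lay above in both for 3 (10.7%), against 8.58%, namely Gadd45a, Ei24 and Ddit4. Counting intervals compare libraries and not conditions. By the sign of the fold change alone, 13 genes (46.4%) were lower in both lines, against 28.9% of all genes, and 6 (21.4%) were higher in both, against 28%.

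**Figure D3:**
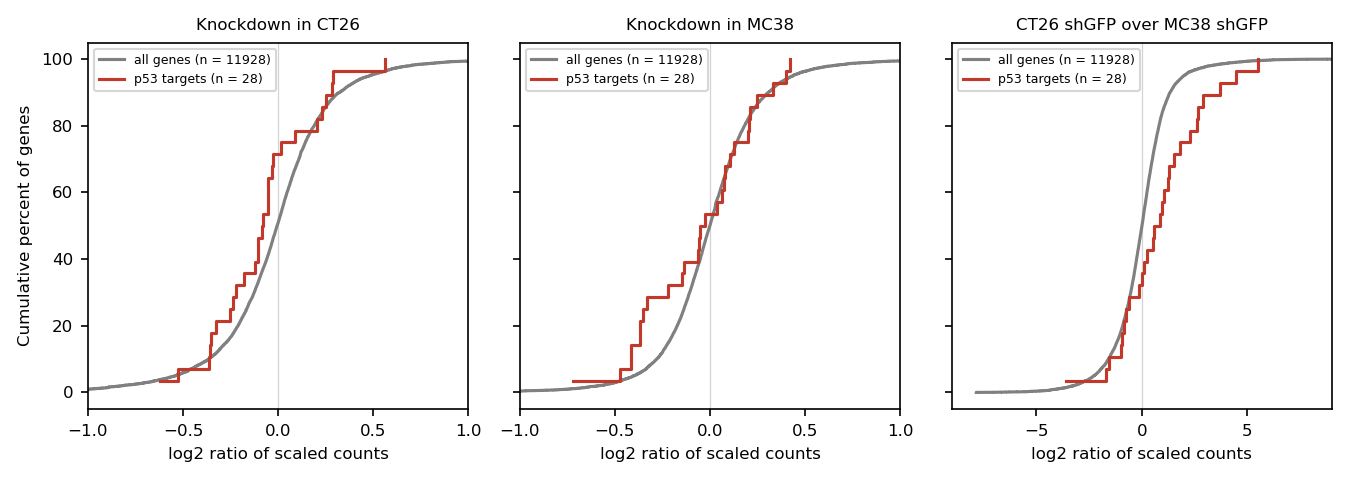
Cumulative percent of genes against the log2 ratio of scaled counts for knockdown in CT26, knockdown in MC38 and CT26 shGFP over MC38 shGFP, with the p53 targets in red and all genes compared in grey. The medians of the p53 targets are -0.08, -0.04 and 0.70, and the red line lies to the right of the grey one over most of the upper range of the last panel.

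Gadd45a rose and Phlda3 fell in the test of the mean effect over CT26 and MC38, the quasi-likelihood F test of edgeR, blocked by cell line, with p-values adjusted over all genes by the Benjamini-Hochberg method. This was 1 of 28 (3.57%) in each direction, against 1.67% of all genes called higher and 1.12% called lower. At an unadjusted p under 0.05 there were 4 higher and 7 lower among the 28, against 6.56% and 5.76% of all genes. Gadd45a (chromosome 6, 67035096 to 67080654) counted 10230 fragments with shGFP and 13908 with shmaurka-1 in CT26, and 5760 and 7448 in MC38. The knockdown library was the higher of each pair, by 1.48-fold in CT26 (log2 fold change 0.56, interval 0.53 to 0.60) and 1.32-fold in MC38 (0.40, interval 0.35 to 0.45). The common log2 fold change was 0.48 (SE 0.0918, edgeR adjusted p = 4.52e-05). This call was lost with limma on log2(FPKM + 1) (limma adjusted p = 0.343) and in edgeR without the line as a block (adjusted p = 1), and it held in the other 8 alternatives. Its locus in the files also covers E230016M11Rik, which had 331 fragments in all 4 libraries together.

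Phlda3, with the fragments given above, was the lower in the knockdown library of each pair, by -0.37 in CT26 (log2, interval -0.43 to -0.30) and by -0.35 in MC38 (interval -0.57 to -0.14). The common value was -0.36 (SE 0.112, edgeR adjusted p = 0.0475), close to the threshold. This call held in 4 of 10 alternatives and was lost with DESeq2, limma-voom, limma on log2(FPKM + 1), a stricter count filter, no count filter and no line block. Eda2r and Trp53inp1 stood just outside the threshold. For Eda2r the log2 fold change was -0.26 in CT26 but -0.72 in MC38 (common value -0.43, SE 0.136, edgeR adjusted p = 0.0527). Trp53inp1 had 590 and 376 fragments in CT26 and 358 and 263 in MC38 (common value -0.48, SE 0.152, edgeR adjusted p = 0.0568).

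**Figure D4:**
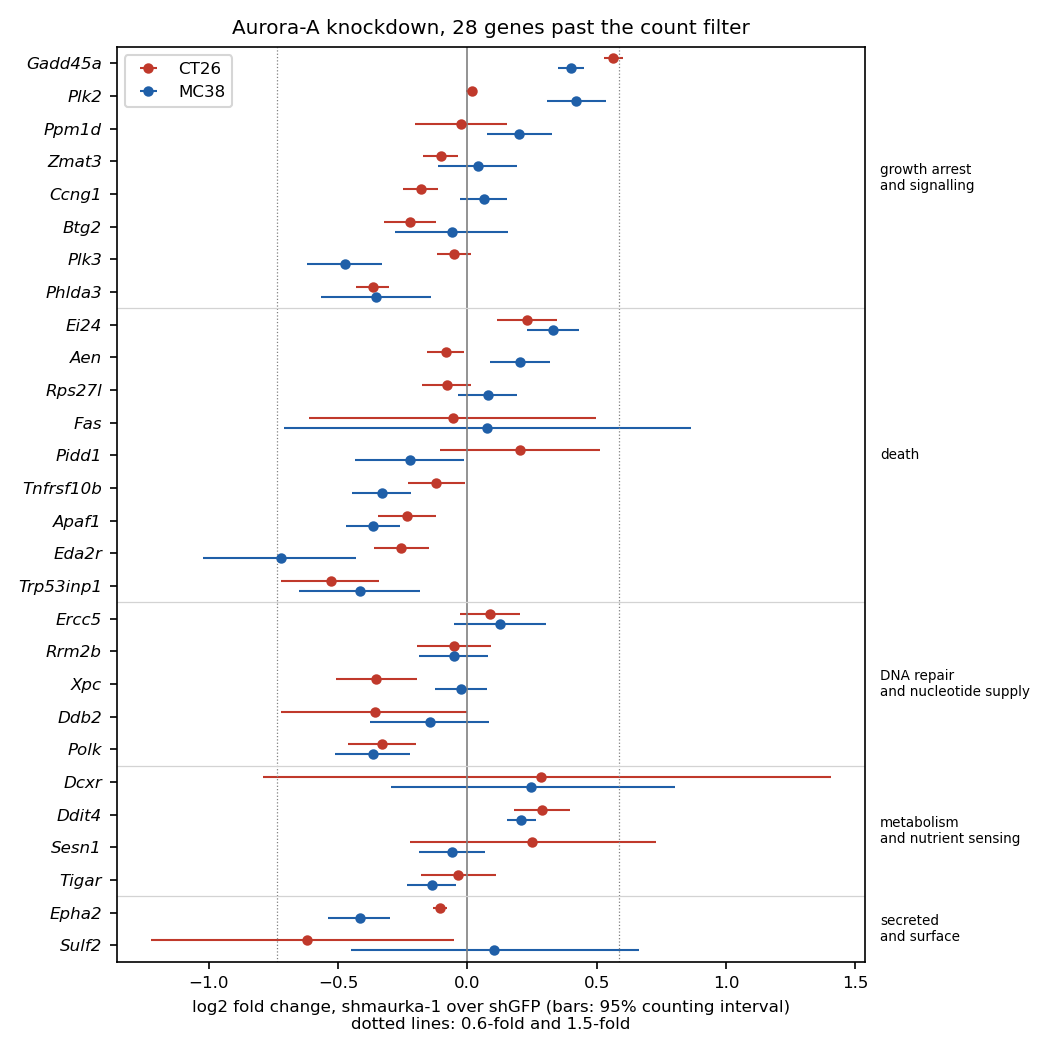
Log2 fold change, shmaurka-1 over shGFP, of the 28 genes past the count filter in CT26 (red) and MC38 (blue), with 95% counting intervals as bars and dotted lines at 0.6-fold and 1.5-fold. Every point lies between the dotted lines, and Gadd45a at 0.56 and 0.40 is the highest on average while Eda2r at -0.26 and -0.72 and Trp53inp1 at -0.53 and -0.41 are among the lowest.

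Within growth arrest and signalling, the polo-like kinases had different values in MC38. Plk2 had a value of 0.42 there (log2, interval 0.31 to 0.54) and 0.02 in CT26, and Plk3 had -0.47 (interval -0.62 to -0.33) in MC38 and -0.05 in CT26. Neither passed the common test, with edgeR adjusted p of 0.285 and 0.277. Ccng1, Zmat3 and Btg2 had values of -0.18, -0.10 and -0.22 in CT26, each with an interval below no change, and of 0.06, 0.04 and -0.06 in MC38, each with an interval that spans it. Ppm1d had -0.03 in CT26 and 0.20 in MC38.

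Among the death genes, Apaf1 had 1483 and 1159 fragments in CT26 and 1736 and 1320 in MC38, with log2 fold changes of -0.24 and -0.37 (edgeR adjusted p = 0.161 for the common effect). Tnfrsf10b had -0.12 and -0.33 (edgeR adjusted p = 0.411). Ei24 had 0.23 and 0.33, in the opposite direction (edgeR adjusted p = 0.21). Aen had intervals on opposite sides of no change, with -0.08 (interval -0.16 to -0.01) in CT26 and 0.20 (interval 0.09 to 0.32) in MC38. Rps27l, Pidd1 and Fas had values between -0.22 and 0.20, and Fas had intervals reaching from -0.71 to 0.87 in MC38 at 29 and 30 fragments, so a change of 1.5-fold could not be seen at that depth.

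Of the repair genes, Polk was lower in the knockdown library of both lines, with 1124 and 823 fragments in CT26 and 913 and 694 in MC38 and log2 fold changes of -0.33 and -0.37, but it did not pass the common test (edgeR adjusted p = 0.13). Xpc and Ddb2 had -0.35 and -0.36 in CT26 and -0.03 and -0.15 in MC38. Ercc5 and Rrm2b lay between -0.05 and 0.12 in both lines. By the deposited FPKM, Ercc5 went from 17.7 to 23.2 in CT26, while its scaled count went from 1302 to 1384, a smaller step in the same direction. In MC38 its FPKM went from 6.95 to 6.57 and its scaled count from 455 to 496, so there the signs differed.

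Among the genes of metabolism and nutrient sensing, Ddit4 was at 0.29 in CT26 and 0.21 in MC38 on the log2 scale (edgeR adjusted p = 0.226 for the common effect). Sesn1 had 0.25 and -0.06, Tigar -0.03 and -0.14, and Dcxr 0.28 and 0.25 with intervals that span no change. At the cell surface, Epha2 had -0.10 in CT26 and -0.42 in MC38, with both intervals below no change, and an edgeR adjusted p of 0.152. Sulf2 had -0.62 (interval -1.22 to -0.05) in CT26 and 0.10 in MC38. Of the 4 genes under the filter, Gdf15 had a value of 1.71 in CT26, resting on 2 and 8 fragments (interval -0.20 to 5.39), and -0.28 in MC38 (interval -0.40 to -0.15). Trp53i11 and Cpt1c had intervals that span no change in both lines.

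The p53 circuit list, given for the pathway around these targets, had 16 genes past the filter. None was called higher or lower by edgeR, with 1 higher and 6 lower at an unadjusted p under 0.05, against 6.56% and 5.76% of all genes, and none by DESeq2, limma-voom or limma on log2(FPKM + 1). The medians were -0.03 in CT26 and -0.04 in MC38. Past 1.5-fold in CT26 was 1 of the 16, Sfn, against 3.2% of all genes, and no other fold threshold was passed. Sfn had 7 and 11 fragments there, with a log2 interval of -0.73 to 2.38. Trp53 was at 0.18 in CT26 and 0.09 in MC38 on the log2 scale (edgeR adjusted p = 0.668). Cdkn1a had -0.19 and -0.32 (edgeR adjusted p = 0.171), and Mdm2 had -0.32 and -0.26 (edgeR adjusted p = 0.0836).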

How the data were processed

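Total RNA of 4 cultures was made into strand-specific libraries, and the submitters' processing notes name Trimmomatic 0.36, HISAT2, Cufflinks 2.2.1 and Cuffdiff. Whether counting used the strand is not given in the sources used here. The notes name GRCm39, but all 32 genes lie at their GRCm38.p6 positions, so coordinates are GRCm38. The authors deposited an estimated count for each gene and library, scaled between libraries. They also deposited FPKM values, used here for levels and as an alternative. Between 97.1% and 97.7% of nonzero counts were whole multiples, within 0.05, of 1 step per library, and dividing by it gave the fragments printed. Of the 32 loci, 12 are shared with another gene.

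Fold changes are ratios of TMM-scaled counts with 1 count added. Counting intervals are exact (Clopper-Pearson) at 95%, conditional on the sum of 2 libraries, and cover counting error only. The common and line effects were tested in edgeR 4.0.16 (R 4.3.3) on rounded counts with terms for line and knockdown, over 11928 genes. The fit has 1 residual degree of freedom and an infinite prior, so the spread comes from all genes together. An interaction was not tested, since it would leave no residual degree of freedom. On simulated counts of this comparison with 11928 genes, 197 of 200 genes changed 3-fold were recovered, and 14 of 211 calls were false. The simulation took its spread from the fit and made each change the same in both lines. It therefore says nothing of smaller changes, such as those of the p53 targets, or of changes that differ between the lines. DESeq2 1.42.0, limma 3.58.1, other scalings, filters and pseudocounts were alternatives. Python 3.11.15 was used with numpy 2.4.6, pandas 2.3.3, scipy 1.17.1 and matplotlib 3.10.9.

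The genes, the circuit list and the tests were chosen with earlier results of these data known. The rule for values in every library took genes called by the common test, genes past the thresholds, the 5 genes with the largest difference between the control libraries at a mean of at least 50 counts, and genes under the filter. Other genes given per library, the 4-fold threshold, both filters in the comparison of levels and the promoter search were chosen after the values were seen.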

Additional observations from a re-analysis of the deposited data

Results flagged for a closer look

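Aen, the apoptosis-enhancing nuclease, had counting intervals on opposite sides of no change in the lines. Its log2 fold change was -0.08 in CT26, with 3490 and 3028 fragments, and 0.20 in MC38, with 1178 and 1329 fragments. The CT26 value minus the MC38 value was -0.29. On FPKM, with 1 added, the CT26 value was -0.013, close to no change, and the MC38 value 0.14. This difference was not tested, because 1 library per group leaves no residual degree of freedom for it.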

How the results depend on the processing

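The medians of the 28 genes kept their sign under every scaling, added count and filter tried. No gene passed the thresholds in the main setting, but in CT26 2 did in FPKM with 0.1 as pseudocount (Gadd45a, Sulf2), 1 with 1 as pseudocount (Gadd45a), 1 with no filter (Gdf15) and 1 with a lower threshold of 1/1.5 (Sulf2). In MC38, 1 did with total-count scaling and 1 with the threshold of 1/1.5 (Eda2r in both). Gadd45a was called in 8 of 10 alternatives, with edgeR, DESeq2 or limma adjusted p from 2.86e-05 to 1. The exceptions were 0 genes called higher with limma on log2(FPKM + 1) and 0 with no replicate block, where 3 and 0 were higher at an unadjusted p under 0.05. Among all 11928 genes these settings called 0 and 0 higher, with 663 and 6 at an unadjusted p under 0.05, and Gadd45a kept log2 fold changes of 0.52 and 0.51. The fit with line as the block is the paired analysis. Phlda3 was called in 4 of 10 (adjusted p 0.0303 to 1). The count called lower was 0 with DESeq2, limma-voom, limma on log2(FPKM + 1), no replicate block, a mean of at least 50 counts and no filter beyond a count above 0, where 5, 6, 2, 0, 7 and 7 of the genes were lower at an unadjusted p under 0.05, beside 219, 609, 420, 7, 562 and 758 of all genes (11928 fitted, but 10035 with the stricter filter and 23428 with none). It was 3 with total-count scaling (Phlda3, Eda2r, Trp53inp1) and 2 with recovered fragments (Phlda3, Eda2r), a setting chosen after the data were seen, beside 163 and 136 of all genes. DESeq2 called 17 genes higher and 12 lower among all genes, and limma-voom 165 and 102. The causes were not tested.

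Total-count scaling shifted the median ratio of all genes between the lines by -0.29. With it the ratio of Tnfrsf10b went from 0.24 to -0.0517, but relative to the median of all genes it stayed at 0.33 and 0.32. The share of calls that were higher went from 49.9% to 35.3% for the line difference, where 15 of the genes were called higher and 9 lower in place of 16 and 8. For the common effect it went from 59.8% to 49.1%, with shifts of the median of all genes of -0.02 in each line. The filter in each line, chosen after the data were seen, left 1 of the 4 genes more than 4-fold lower in CT26. Sulf2 reversed to -0.17 between the shmaurka-1 libraries. Leaving out a replicate was not possible with 1 library per group. Over all values of single genes under alternatives, including those above, 489 kept their call or stayed within their interval and 68 moved beyond it. A further 2 with an interval off no change reversed in sign (Tnfrsf10b, Sulf2), 8 lost a call (Phlda3, Gadd45a) and 3 gained one (Eda2r, Trp53inp1). Changes of sign in genes whose interval spanned no change, as for Ercc5 in MC38, are among the 489 and 68. Depth limits Fas, Dcxr, Sulf2 and the 4 genes under the filter.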
